A study of Mus musculus with 27 samples.

Results

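Utx-knockout (Utx-KO) mouse embryonic fibroblasts (MEF) were compared with and without induction of the OSKM reprogramming factors, by chromatin immunoprecipitation and sequencing (ChIP-seq) of the histone marks H3K27me3 and H3K4me3. The comparison took 4 of the 27 samples of the series, chosen by their titles, and 4 of its 19 peak lists. All 4 came from V19-OSKM fibroblasts of genotype Utx-/Y, grown in 2i/LIF medium, so the untreated cells carried the inducible factors and the knockout as well. One pair, an H3K27me3 and an H3K4me3 library, was labelled as given no doxycycline (dox). The other pair was labelled DOX, the drug that switches on Oct4, Sox2, Klf4 and c-Myc. Wild-type (WT) MEF of genotype Utx+/Y, untreated and with dox, are given beside them where the same contrast was read. Dose and duration of dox, and the number of animals or clones behind each library, are not given in the sources used here.

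H3K27me3 is written by Polycomb repressive complex and marks silent developmental genes, often over long domains. H3K4me3 is written by the COMPASS and Trithorax-type methyltransferases and marks promoters of active and poised genes. A region that carries both marks is called bivalent, a state best known from developmental gene promoters in embryonic stem cells (ESC). UTX, the product of the X-linked gene Utx (also Kdm6a), removes methyl groups from H3K27, and in male mice the Y chromosome carries the related gene Uty. Early in reprogramming the OSKM factors shift fibroblast chromatin towards the pluripotent state.

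Each state and mark had 1 library. The differences below therefore have no replicate check and no test, and all intervals are 95% intervals of counting error over peaks or regions. No read totals were used, so depth is not known beyond the length of each list. The untreated Utx-KO lists held 5708 H3K27me3 and 22056 H3K4me3 peaks, and those with dox 4335 and 16157. The authors' peak score grows with the significance of a peak (-10 log10 of its probability, as MACS writes it) and had a median of 151 in the untreated H3K27me3 list and 82.8 with dox. For H3K4me3 the medians ran the other way, 317 untreated and 1414 with dox.

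The untreated and the dox lists differed on the sex chromosomes in a way the shared label Utx-/Y does not describe. Chromosome X held 330 of the 5708 untreated H3K27me3 peaks (5.78%, Wilson interval 5.21 to 6.42). With dox it held 54 of 4335 (1.25%, 0.956 to 1.62), and in WT MEF 35 of 4760 (0.735%). The untreated X peaks were short and of modest score, with a median width of 616 bp and a highest score of 476. Of the 330, 11 met an H3K27me3 peak with dox, 9 met one of untreated WT MEF and 22 met one of Utx-KO ESC. The X share of H3K4me3 peaks was nearly the same, 3.04% untreated and 3.17% with dox. On chromosome Y the untreated list had no H3K4me3 peak, whereas the dox list had 2, at 580124 to 582822 (score 734) and at 620664 to 623812 (score 956). Untreated WT MEF had 7 Y peaks of H3K4me3 and WT MEF with dox had 4. Whether the untreated and dox libraries came from the same line was not tested. Values without X and Y are given where they moved.

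The H3K27me3 of Utx-KO fibroblasts lay in fewer but wider peaks with dox. The median peak width was 651 bp (648 to 653) untreated and 1027 bp (1002 to 1059) with dox, a ratio of 1.58. The widest 10% of peaks began at 1040 bp untreated and at 2933 bp with dox. Covered length was 4.20 Mb untreated and 6.41 Mb with dox, although the dox list had fewer peaks. When peaks within 3 kb of each other were merged into domains, the untreated list gave 3651 domains with a median of 657 bp and the dox list 2723 with a median of 1335 bp. Domains of at least 10 kb, the size class of classic Polycomb domains, numbered 88 untreated and 135 with dox. They made up 18.5% of the covered length untreated and 29.6% with dox.

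**Figure D1:**
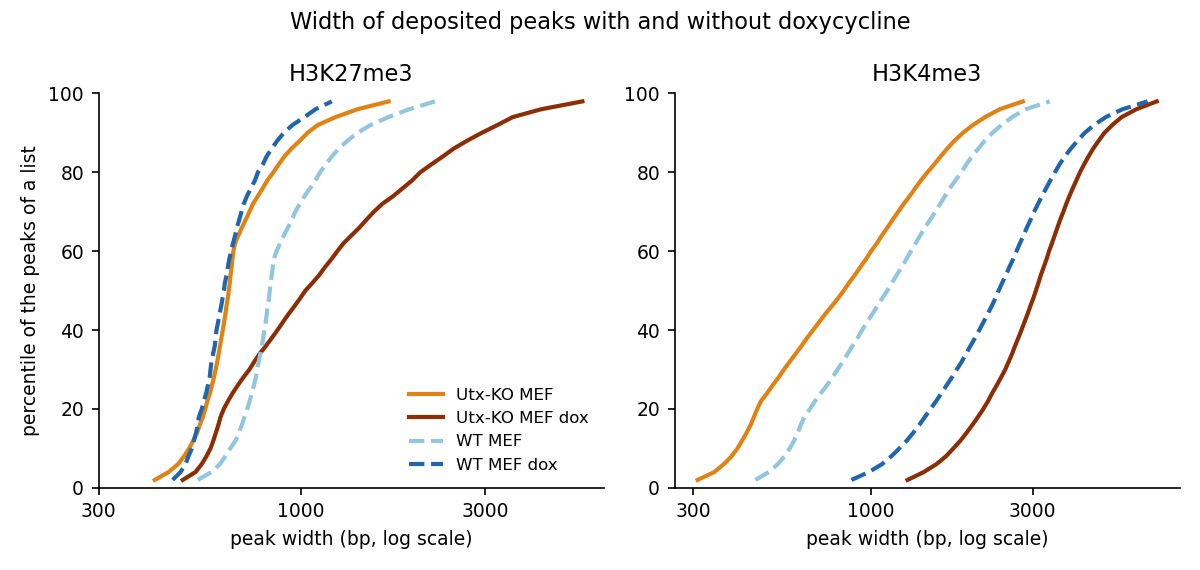
Width of the deposited peaks (x axis, bp, log scale) against the percentile of the peaks of a list (y axis), for H3K27me3 on the left and H3K4me3 on the right, each line being 1 list. The dox lists of Utx-KO MEF lie to the right of the untreated ones for both marks, with medians of 1027 against 651 bp for H3K27me3 and 3063 against 832 bp for H3K4me3.

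The positions of H3K27me3 overlapped only in part. Overlapping peaks of both lists, with at least 1 bp shared, were merged into 7504 regions. Of these, 1474 had peaks in both lists, 2650 (35.3%) had peaks with dox only and 3380 (45%) untreated only. The log2 ratio of dox-only over untreated-only regions was -0.35 (exact Clopper-Pearson interval -0.42 to -0.28). Its direction was not stable. It was -0.23 on autosomes, -2.34 among peaks with a score of at least 100 and 0.23 when both lists were reduced to the same number of top-scoring peaks. By length, 39.2% of the untreated base pairs were covered with dox and 25.7% of the dox base pairs were covered untreated.

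Whether an H3K27me3 domain was found in both states went with its width. The untreated domains were sorted by width into 5 classes of equal size. Of the narrowest class, 235 to 569 bp wide, 11.4% (9.25 to 13.9) met a dox domain, and the next 2 classes reached 13.0% and 15.2%. Of the widest class, from 1852 bp upward, 73.8% (70.5 to 76.9) met one. The dox domains showed the same order, from 9.17% of the narrowest class to 82.4% (79.0 to 85.4) of the widest, which began at 3456 bp. A wider domain also offers more base pairs for an overlap, and the part of this in the order was not tested. Score separated the untreated peaks less evenly: 33.5%, 31.2%, 28.0% and 41.8% of the 4 lower score classes met a dox peak, and 69.4% of the highest. In the dox list the share went from 15.7% in the lowest score class to 77.9% in the highest.

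**Figure D2:**
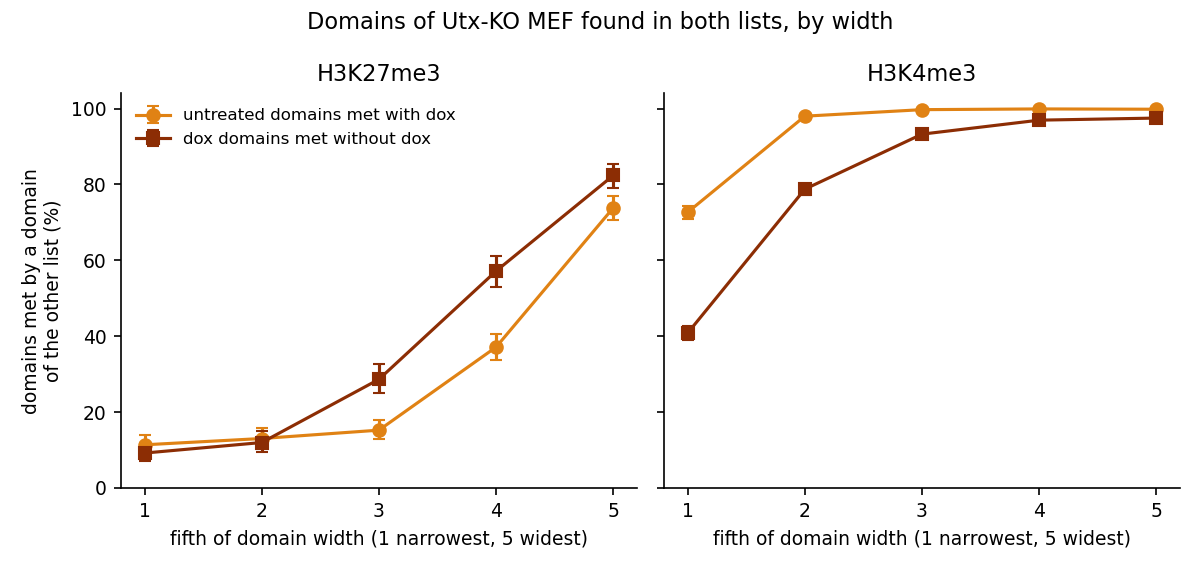
Percent of Utx-KO MEF domains (y axis) that met a domain of the other list, by class of domain width (x axis, 5 classes of equal size from narrowest to widest), with Wilson 95% intervals as bars. For H3K27me3 on the left the share ran from 11.4% to 73.8% of untreated domains, and for H3K4me3 on the right from 72.7% to 99.9%.

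The 3 kinds of H3K27me3 region differed in how often other cells of the series carried them. Regions held in both states had a median width of 2076 bp, and 4.89% (3.90 to 6.11) of them were in none of the 6 other H3K27me3 lists. Regions found with dox only had a median of 829 bp, and 22.5% (20.9 to 24.1) were in no other list. The untreated-only regions, median 633 bp, were in no other list in 63.2% (61.6 to 64.8) of cases, and 319 of the 3380 lay on X. In Utx-KO ESC, by far the longest H3K27me3 list with 36231 peaks, 88.5% of the regions held in both states were found, 73.6% of the dox-only regions and 32.2% of the untreated-only ones. In untreated WT MEF the same shares were 67.7%, 23.7% and 12.0%. The dox-only regions were thus found in WT fibroblasts and in WT ESC (24.4%) about equally often.

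H3K27me3 with dox was longer where both states had a domain, and much of it also stood where untreated cells had none. In 1215 windows with H3K27me3 domains in both states, covered length was 2.56 Mb untreated and 4.68 Mb with dox, and 81.5% (79.2 to 83.6) of the windows had more with dox. Outside these windows 1.73 Mb was covered with dox, where no untreated domain lay, and 1.64 Mb untreated, where no dox domain lay. For 940 peaks that met exactly 1 peak of the other list and were met by no other, the dox peak was the wider in 84.9% (82.5 to 87.0), with a median width ratio of 1.89 (1.81 to 1.98). Short untreated peaks also stood where dox had a long one: 31.7% of the dox peaks that met any untreated peak met at least 2, and as many as 14. Of the dox-only regions, 33.0% lay within 3 kb of an untreated H3K27me3 peak, at a median distance of 21.3 kb over all of them.

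The 4 windows with the greatest gain in H3K27me3 length lay on chromosomes 15, 2, 6 and 11. On chromosome 15 from 102737467 to 102830568, untreated peaks covered 31.2 kb in 41 pieces and dox peaks 60.1 kb in 28. On chromosome 2 from 74485131 to 74554530, coverage was 25.99 kb untreated and 54.4 kb with dox. The window on chromosome 6 from 52153654 to 52231245 had 41.5 kb untreated and 67.2 kb with dox, where it held the widest H3K27me3 domain of the dox list, 73510 bp. On chromosome 11 from 96122255 to 96176788 the values were 21.8 and 43.1 kb. As background, the 4 mouse Hox clusters, textbook Polycomb domains, lie on these same chromosomes; the windows were not assigned to genes, since no annotation of build mm9 was used. In WT MEF the same windows went from 44.3 to 3.19 kb, from 30.5 to 2.94 kb, from 22.0 to 0.713 kb and from 9.51 to 0.618 kb of H3K27me3 when dox was given. The windows were chosen for their gain in Utx-KO cells, so that direction is fixed by the choice. The WT dox list had 938 H3K27me3 peaks in all, 22 of them with a score of at least 100, and the part of its length in these WT values was not tested.

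Other windows with more H3K27me3 with dox were smaller. A stretch of chromosome 6 just before that window, from 52124928 to 52147520, had no H3K27me3 peak untreated and 18.7 kb in 8 peaks with dox. It already had 9.15 kb of H3K4me3 untreated and 14.0 kb with dox. On chromosome 8 from 59788186 to 59833728, H3K27me3 was 17.5 kb untreated and 33.8 kb with dox. On chromosome 5 from 140006450 to 140034777 it was 5.94 and 20.5 kb, with no H3K4me3 peak in either state. On chromosome 8 from 12381299 to 12407510 the highest score was 409 untreated and 1523 with dox, and coverage was 9.24 and 23.3 kb. The highest scoring region with dox only, on chromosome 13 from 55936068 to 55939796 (score 657), also had H3K27me3 peaks in 4 of the 6 other lists.

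Windows with less H3K27me3 with dox lost fewer kilobases. The greatest loss was on chromosome 9 from 91278629 to 91308476, with 15.8 kb in 18 peaks untreated and 8.78 kb in 9 peaks with dox. Its highest score was 616 untreated and 187 with dox. On chromosome 13 from 40796911 to 40812361 coverage was 9.21 and 4.07 kb, and on chromosome 12 from 50474572 to 50504539 it was 16.6 and 12.2 kb. A window on chromosome 19 from 14685901 to 14697724 had 4.52 kb untreated and 0.700 kb with dox, and none of the 6 other H3K27me3 lists held it. Likewise a window on chromosome 11 from 98381312 to 98386496 had 3.68 kb untreated, none with dox and none in the 6 other lists. The 3 highest scoring untreated-only regions, 2 on chromosome 2 between 98502215 and 98507664 and 1 on chromosome 9 from 35112627 to 35113284, also carried H3K4me3 in untreated cells of both genotypes and UTX peaks in untreated WT MEF. There were 12 positions where H3K27me3, H3K4me3 and UTX peaks coincided in untreated fibroblasts, and leaving them out gave a log2 ratio of -0.35 as before.

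H3K4me3 was much wider with dox. Its median peak width was 832 bp (821 to 842) untreated and 3063 bp (3042 to 3086) with dox, a ratio of 3.68. The lower end of the lists moved as well: the narrowest peak was 160 bp untreated and 753 bp with dox, and 10% of peaks were under 405 and under 1751 bp. The part of peak-calling settings or depth in these widths was not tested. Covered length was 22.3 Mb untreated and 52.8 Mb with dox. After merging within 3 kb the median domain was 1606 bp (1586 to 1626) untreated and 3132 bp (3112 to 3155) with dox, closer together than the peak medians. Domains of at least 10 kb numbered 30 untreated and 233 with dox. Scores of 3100 or more, where the scale saturates, were reached by 60 peaks untreated and 3156 with dox.

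Nearly all of the untreated H3K4me3 was contained in that found with dox. Of the untreated base pairs, 97.8% were covered with dox, against 41.4% of the dox base pairs covered untreated. The dox peaks drew together what were several peaks untreated: 45.7% of the 13024 dox peaks that met an untreated peak met at least 2, and as many as 13. For the 7069 singly paired peaks, every dox peak was wider than its untreated partner (7069 of 7069, Wilson interval 99.95 to 100%). The dox peak enclosed the untreated one in 99.1% of pairs. It reached a median of 811 bp further on the left and 825 bp further on the right. Left and right are by genome coordinate without strand, so these medians cannot show whether single peaks extended evenly.

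The width added to an H3K4me3 peak was somewhat smaller for peaks that were wider before. The 7069 pairs were sorted by untreated width into 5 classes. In the narrowest class, median 450 bp untreated, the median gain was 1821 bp (1762 to 1866). In the widest, median 2151 bp, it was 1518 bp (1483 to 1555). The ratio therefore ran from 5.07 in the narrowest class to 1.68 in the widest. The singly paired peaks of WT MEF had a smaller gain in every class, from 1310 bp (1276 to 1349) to 886 bp (847 to 916), and 98.1% were wider with dox. H3K27me3 pairs of Utx-KO MEF had a median gain of 789 bp (641 to 929) in the narrowest class and 439 bp (288 to 615) in the widest. The 172 H3K27me3 pairs of WT MEF had a median difference of -17 bp (-111 to 147) in the narrowest class, with 17 of 35 pairs wider, and of -1801 bp (-2062 to -1603) in the widest.

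**Figure D3:**
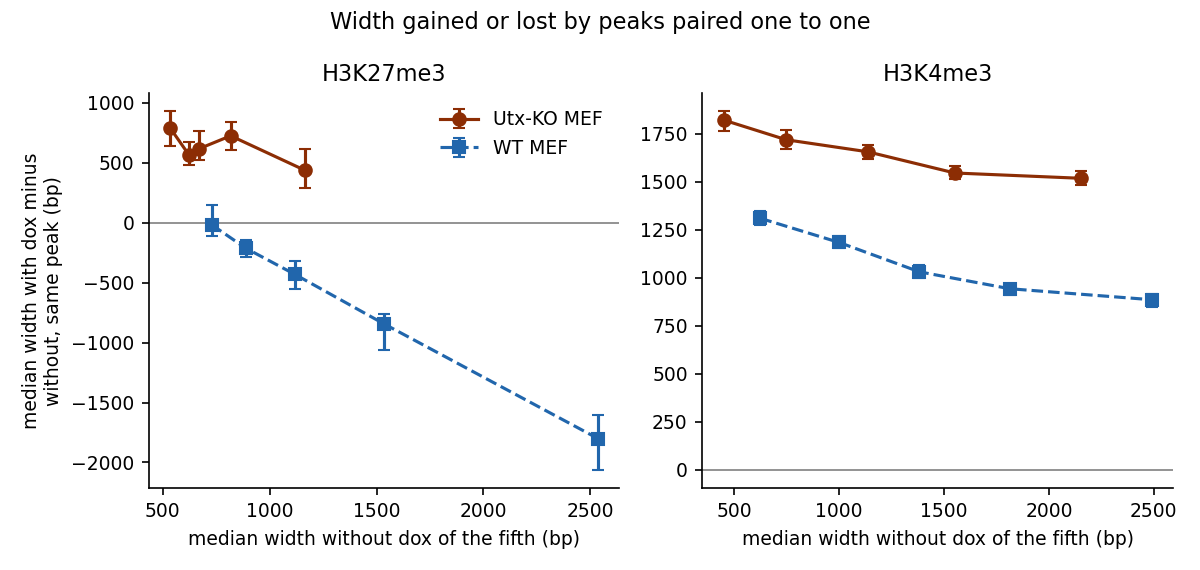
Median difference in width between a dox peak and its single untreated partner (y axis, bp) against the median untreated width of each of 5 classes (x axis, bp), for H3K27me3 on the left and H3K4me3 on the right; bars are 95% order-statistic intervals. Utx-KO MEF lie above 0 for both marks, between 439 and 789 bp and between 1518 and 1821 bp, whereas for H3K27me3 the WT MEF interval includes 0 in the narrowest class (-111 to 147 bp) and lies below 0 in the other 4.

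Overlapping H3K4me3 peaks merged into 17117 regions, of which 13022 had peaks in both states. With dox only there were 3133 (18.3%) and untreated only 962 (5.62%), a log2 ratio of 1.70 (1.60 to 1.81). With equal numbers of top-scoring peaks it was 4.87. Of the untreated domains, 94.0% (93.6 to 94.4) met a domain with dox. The share was lowest in the narrowest class, 160 to 728 bp wide, at 72.7%, and was between 98.0% and 99.9% in the 4 wider classes. Regions with untreated peaks only had a median width of 444 bp, and 57.1% (53.9 to 60.2) were in none of the 6 other H3K4me3 lists.

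The H3K4me3 regions with dox only were set beside those held in both states by how many were found in other cells of the series, with lower shares in each list named. Of the 3133, 80.6% (79.1 to 81.9) were found in WT MEF with dox, 56.5% (54.7 to 58.2) in WT ESC and 23.3% (21.9 to 24.8) in untreated WT MEF. For the 13022 regions held in both states the shares were 97.6%, 89.6% and 90.8%. In no other H3K4me3 list were 9.96% (8.96 to 11.1) of the dox-only regions and 0.845% (0.701 to 1.02) of those held in both. They lay at a median of 36.6 kb from the nearest untreated H3K4me3 peak, and 5.75% within 3 kb of one, so few were side pieces of an existing peak. They overlapped H3K27me3 more often than the regions held in both states. In untreated Utx-KO MEF 17.1% (15.9 to 18.5) of them carried H3K27me3, against 2.42% (2.17 to 2.70) of the regions held in both. With dox the shares were 28.3% (26.7 to 29.9) and 4.77% (4.42 to 5.15). In Utx-KO ESC they were 53.1% and 24.5%. These intervals do not overlap, but no replicate gives their spread. The dox-only regions were the narrower kind, with a median of 1955 bp against 3309 bp, and the part of width was not tested.

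Among named H3K4me3 windows, the longest gain was on chromosome 8 from 87288304 to 87325937. It had 7.51 kb of H3K4me3 in 9 peaks untreated and 34.4 kb in 3 peaks with dox, the widest H3K4me3 domain of the dox list at 37634 bp. WT MEF went from 4.95 to 14.7 kb there. On chromosome 8 from 111215618 to 111248889, 12 untreated peaks (10.5 kb) gave way to 1 dox peak of 30.9 kb, and WT MEF had 25.5 kb with dox. Both windows were chosen for their gain in Utx-KO cells, which favours a larger value there than in WT MEF with dox. On chromosome 19 from 59524956 to 59544808 the values were 4.17 and 17.3 kb. The widest untreated domain, on chromosome 6 from 52107477 to 52133541, had 20.9 kb in 13 peaks and 26.1 kb in 1 peak with dox. It overlaps the stretch of chromosome 6 described above that had H3K27me3 with dox only, and H3K27me3 covered 6.36 kb of it with dox.

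Of the 10 highest scoring H3K4me3 regions with dox only, 7 were found in all 6 other H3K4me3 lists. On chromosome 11 from 63731525 to 63737923 there was no untreated H3K4me3 peak, and with dox 1 region of 6.40 kb at the saturated score of 3100. The same stretch carried 3.59 kb of H3K27me3 untreated and 1.99 kb with dox. On chromosome 13 from 56393965 to 56399151 H3K4me3 with dox covered 5.19 kb at a score of 3100, and H3K27me3 went from 1.12 to 0.609 kb. On chromosome 6 from 31509524 to 31515839 it covered 6.32 kb (score 2943), and H3K27me3 was 2.15 kb untreated and 1.18 kb with dox. By contrast, chromosome 2 from 167904811 to 167908822 (4.01 kb, score 2587) and chromosome 12 from 3805621 to 3810026 (4.41 kb, score 2526) had no H3K27me3 in either state. All of these regions had H3K4me3 in 5 or 6 of the 6 other lists.

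Some regions reached the saturated score in both states. The widest of them, on chromosome 6 from 134865802 to 134884472, had 10.8 kb of H3K4me3 untreated and 18.7 kb with dox. WT MEF had 10.4 kb there untreated and 12.2 kb with dox. On chromosome 4 from 88576775 to 88588757 the Utx-KO cells had 9.61 kb untreated and 12.0 kb with dox, whereas WT MEF had 1.62 and 2.57 kb. The losses of H3K4me3 were small. Apart from windows on chromosomes 9, 2 and 11 that WT MEF also lacked with dox, the greatest was on chromosome 15 from 55309175 to 55310823, with 1.46 kb untreated in 2 peaks, none with dox and none in the other lists. The window on chromosome 9 from 3015195 to 3036715 had 10.3 kb untreated in Utx-KO MEF and 11.5 kb in WT MEF, no peak with dox in either, and H3K27me3 peaks beneath it in both untreated states.

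Regions with both marks were more frequent with dox. The 4 Utx-KO lists merged into 22468 regions. Of these, 344 (1.53%) carried both marks untreated and 1476 (6.57%) with dox, a log2 ratio of 2.10 (1.93 to 2.27). A merged region can hold both marks side by side without a direct overlap of peaks. Of the 1476 regions, 238 had both marks untreated, 469 had H3K27me3 only, 379 had H3K4me3 only and 390 had neither. In the other direction, 69.2% of the 344 regions with both marks untreated still had both, 85 had H3K4me3 only, 7 had H3K27me3 only and 14 had neither. Wider peaks meet other peaks more often by construction. With each H3K4me3 peak reduced to its midpoint, an alternative added after the data were seen, the log2 ratio was 2.38. The H3K27me3 peaks kept their full width there, with medians of 651 bp untreated and 1027 bp with dox. The part of that width in the ratio was not tested.

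Starting from H3K27me3 alone, Utx-KO regions seldom changed to H3K4me3 alone. Of 4352 such regions, 3061 (70.3%) had no mark with dox, 740 (17.0%) kept H3K27me3 only, 469 (10.8%) had both marks and 82 (1.88%) had H3K4me3 only. H3K4me3 was therefore present with dox at 12.7% (11.7 to 13.7) of them. In WT MEF, of 3890 such regions, 852 (21.9%) had H3K4me3 only and 123 (3.16%) had both. There the share with H3K4me3 was 25.1% (23.7 to 26.5). The untreated H3K27me3 peaks had a median width of 651 bp in Utx-KO and 831 bp in WT MEF, and 5.78% and 0.735% lay on X. The H3K4me3 lists with dox held 16157 and 19689 peaks. The part of these differences in the 12.7% and 25.1% was not tested. Regions with both marks went apart further: in WT MEF 341 of 384 (88.8%) had H3K4me3 only with dox, and 22 (5.73%) still had both. Of all untreated H3K27me3 peaks, 4.56% met an H3K27me3 peak with dox in WT MEF and 40.8% in Utx-KO MEF. The low WT share was thus not particular to regions with both marks. The WT dox list had 938 H3K27me3 peaks, and its part in these shares was not tested. Regions with H3K4me3 only differed less between the genotypes: 90.3% in Utx-KO and 93.4% in WT MEF had H3K4me3 only with dox as well.

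**Figure D4:**
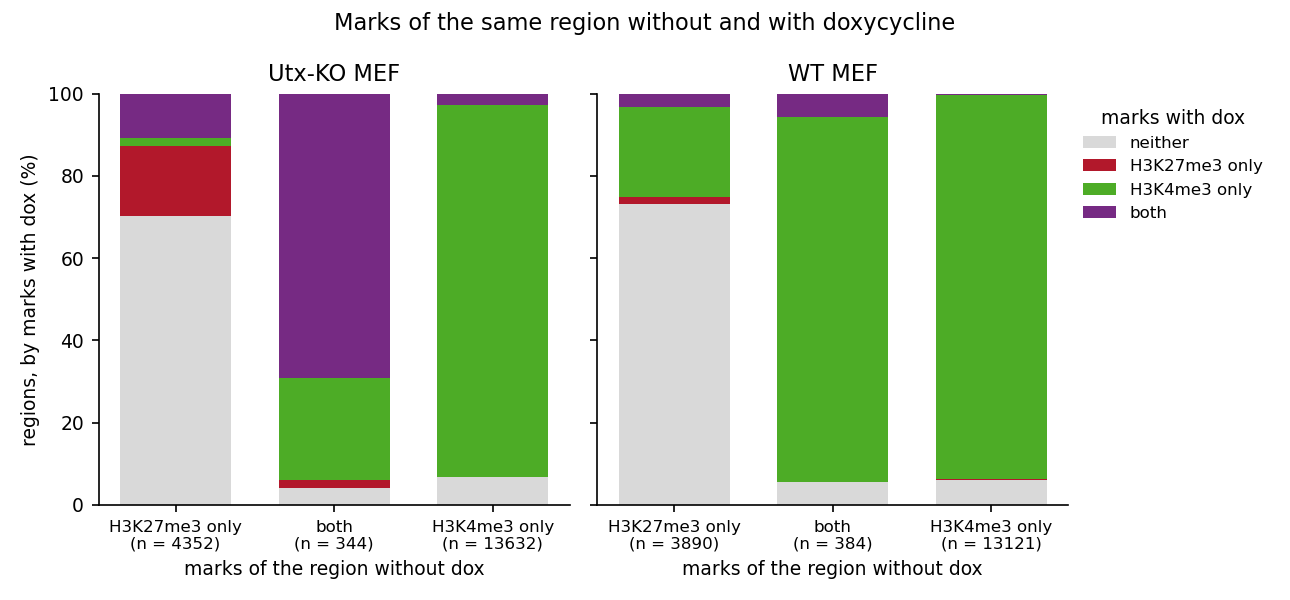
Share of regions (y axis, percent) by the marks they carried with dox (colours), for regions with H3K27me3 only, both marks or H3K4me3 only untreated (x axis, number of regions below each bar), in Utx-KO MEF on the left and WT MEF on the right. Of regions with both marks untreated, 69.2% still had both with dox in Utx-KO MEF and 5.73% in WT MEF, 1 library per state and mark. Of all untreated H3K27me3 peaks, 40.8% met an H3K27me3 peak with dox in Utx-KO MEF and 4.56% in WT MEF.

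Counted over H3K27me3 regions, 8.17% (7.57 to 8.81) of all 7504 met an H3K4me3 peak untreated and 27.8% (26.8 to 28.9) with dox, a difference of 19.7 percentage points. For regions with H3K27me3 in both states the shares were 12.6% and 49.3%. For regions with H3K27me3 with dox only they were 13.6% and 39.9%, and for those untreated only 1.98% and 9.02%. The untreated-only regions had the lowest share in either state, but were also the narrowest. Median widths were 633 bp for them, 829 bp for the dox-only regions and 2076 bp for those in both states. The part of width in these shares was not tested. Over all 5476 H3K27me3 regions of WT MEF, 5.30% (4.73 to 5.92) met H3K4me3 untreated and 35.4% (34.1 to 36.7) with dox. The rise was thus not particular to Utx-KO MEF. In WT MEF the order of the classes differed: 36.9% of untreated-only regions met H3K4me3 with dox, 18.9% of dox-only ones and 63.8% of those in both states. With H3K4me3 midpoints in place of whole peaks the overall shares in Utx-KO MEF were 6.25% and 14.8%, a difference of 8.53 points, smaller than that with whole peaks. The midpoint shares in WT MEF were 2.78% and 9.31%.

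The way the peaks overlapped also differed. Untreated, 184 of 5708 H3K27me3 peaks (3.22%, 2.80 to 3.71) overlapped an H3K4me3 peak directly, and for the median one 45.7% of its length was shared. With dox 1808 of 4335 did (41.7%, 40.3 to 43.2), with a median of 95.1% shared. Those that lay wholly inside an H3K4me3 peak numbered 6 untreated and 817 with dox. The length with both marks was 67.8 kb untreated and 2345.5 kb with dox. With dox, the H3K27me3 peaks that overlapped H3K4me3 had a median width of 1345 bp and score of 103, against 851 bp and 71.9 for the others. From the side of H3K4me3, 9.33% of the dox peaks overlapped H3K27me3, and these were narrower (median 2458 bp) than the rest (3122 bp). In WT MEF 258 of 4760 H3K27me3 peaks (5.42%) overlapped H3K4me3 untreated and 246 of 938 (26.2%) with dox. The median shared length of these WT peaks was close to that in Utx-KO MEF, 45.4% untreated and 95.6% with dox. Wholly inside an H3K4me3 peak lay 18 of them untreated and 114 with dox.

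The 1476 regions with both marks in Utx-KO MEF with dox were looked up in the other lists. H3K4me3 was found at 40.0% (37.5 to 42.5) of them in untreated WT MEF, at 86.0% in WT ESC and at 98.2% (97.4 to 98.7) in WT MEF with dox. Such shares are high for H3K4me3 in general: of all H3K4me3 regions held in both Utx-KO states, 89.6% were found in WT ESC and 97.6% in WT MEF with dox. WT MEF with dox had H3K4me3 without H3K27me3 at 90.2% (88.6 to 91.7) of the 1476. The H3K27me3 list of WT MEF with dox held only 938 peaks and met 8.06% of the 1476. Among all Utx-KO H3K27me3 regions it met 12.9% of those held in both states and 3.06% of those with dox only. The part of its length in the 90.2% was not tested. WT ESC had both marks at 39.8% (37.3 to 42.3) of the 1476. For the 344 regions with both marks untreated the share was close, 37.2% (32.3 to 42.4). H3K27me3 was found at 48.6% of the 1476 in untreated WT MEF and at 88.6% in Utx-KO ESC. The 2 aberrant Utx-KO iPS clones, whose H3K27me3 lists hold 135 and 737 peaks, had it at 7 and 6 of the 1476. The share in untreated WT MEF varied with the origin of a region. Regions that had H3K27me3 only before dox carried H3K27me3 in untreated WT MEF in 74.0% of 469 cases. Those that had H3K4me3 only before did so in 25.6% of 379, and those with neither in 33.3% of 390. Among all H3K27me3 regions of Utx-KO MEF, the share in untreated WT MEF was 67.7% for regions held in both states. It was 23.7% for regions with dox only, so the order was not particular to regions with both marks.

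The windows showed the 2 marks arranged in different ways. In the chromosome 15 window with the longest H3K27me3 gain, H3K4me3 stayed short, 0.507 kb untreated and 3.43 kb with dox, where WT MEF with dox had 29.1 kb. In the chromosome 2 window H3K4me3 was 0.976 and 7.69 kb, against 31.3 kb in WT MEF with dox. The chromosome 6 window had 5.17 kb and 18.2 kb, against 48.2 kb, and the chromosome 11 window 2.49 and 16.5 kb, against 36.9 kb. All 4 had less H3K4me3 in Utx-KO than in WT MEF with dox, and also untreated. Untreated WT MEF had 8.32 kb in the chromosome 15 window, 1.21 kb on chromosome 2, 13.95 kb on chromosome 6 and 13.5 kb on chromosome 11.

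Elsewhere the dox list of the Utx-KO cells had H3K4me3 over several kilobases that carried H3K27me3 untreated. The windows named here were chosen for their gain of H3K4me3 in Utx-KO cells, so that direction is fixed by the choice. The choice also favours a larger value in Utx-KO than in WT MEF with dox. A difference between the genotypes in these windows was not tested. On chromosome 3 from 86341501 to 86356256, H3K27me3 was 4.51 kb untreated and 0.756 kb with dox, and H3K4me3 was 0.738 and 14.8 kb. WT MEF with dox had 4.67 kb of H3K4me3 there. On chromosome 8 from 110463532 to 110476141, 3.16 kb of H3K27me3 untreated was followed by none with dox, and H3K4me3 went from none to a peak of 12.6 kb, against 3.13 kb in WT MEF with dox. On chromosome 12 from 50482658 to 50494969, H3K4me3 went from none to 12.3 kb while H3K27me3 covered 7.69 kb untreated and 6.41 kb with dox. On chromosome 13 from 40817418 to 40834889, H3K4me3 was 0.608 and 16.1 kb and H3K27me3 4.56 and 4.28 kb. WT MEF there had 9.14 kb of H3K27me3 untreated, none with dox, and 15.3 kb of H3K4me3 with dox.

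**Figure D5:**
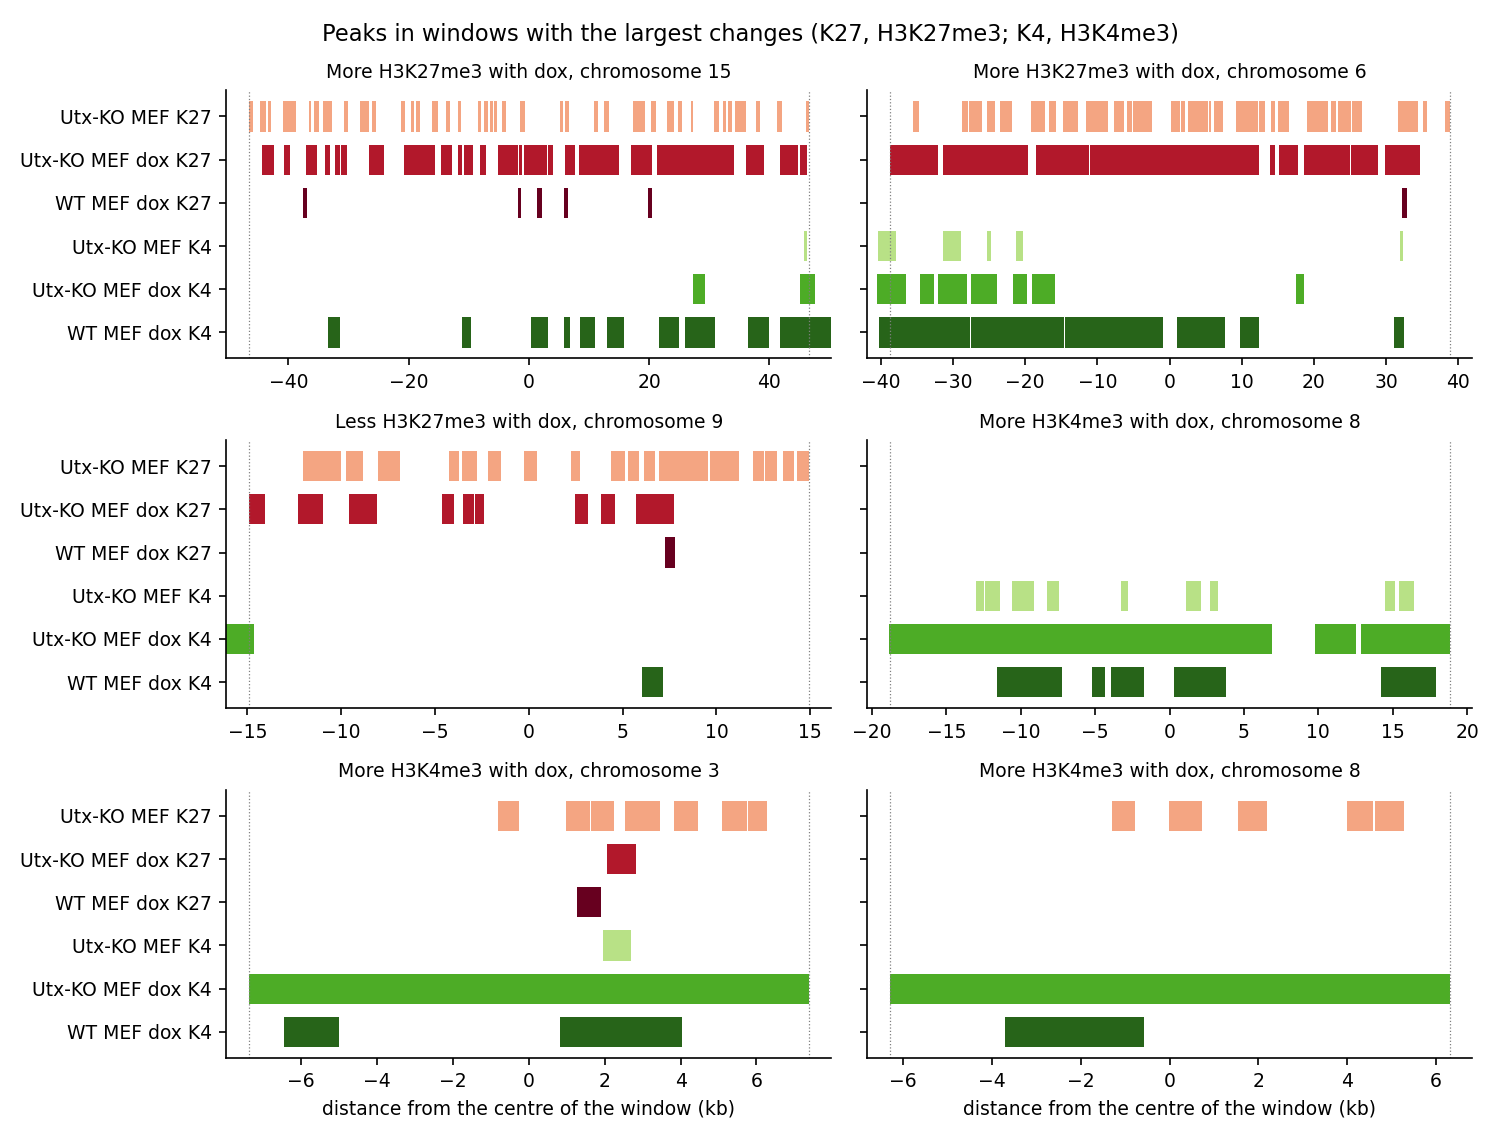
Peaks (coloured bars) of 6 lists in 6 windows, against the distance from the centre of the window (x axis, kb); dotted lines mark its ends, and rows give untreated Utx-KO MEF, Utx-KO MEF with dox and WT MEF with dox for H3K27me3 above and H3K4me3 below. In the chromosome 15 and 6 windows of the top row the long H3K27me3 bars belong to Utx-KO MEF with dox (60.1 and 67.2 kb) and the long H3K4me3 bars to WT MEF with dox (29.1 and 48.2 kb). Untreated WT MEF, not drawn, had 8.32 and 13.95 kb of H3K4me3 in these windows.

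Set beside WT fibroblasts, which share no library with the Utx-KO comparison, the 2 marks gave different pictures. For H3K27me3, WT MEF had 737 dox-only regions of 5476 (13.5%) and 4543 untreated-only (83%), a log2 ratio of -2.62 (-2.74 to -2.51), against -0.35 in Utx-KO MEF. The ratio in Utx-KO cells was higher by 2.27, but with equal peak numbers by 0.23. For H3K4me3, WT MEF had 6991 dox-only regions of 20503 (34.1%) and 834 untreated-only (4.07%), a log2 ratio of 3.07 (2.96 to 3.17). Here Utx-KO MEF were lower by 1.36, and with equal peak numbers higher by 2.36, so the direction depended on the length of the lists. Of the untreated H3K27me3 domains, 5.83% (5.04 to 6.73) met a dox domain in WT MEF and 30.1% (28.6 to 31.6) in Utx-KO MEF. For H3K4me3 the shares were close, 96.1% and 94.0%. With 1 library each, none of these differences between genotypes was tested.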

How the data were processed

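Peak lists of ChIP-seq libraries were analysed as deposited. Per the submitters' processing notes, MACS 1.4.1, Bowtie 0.12.5 and CASAVA 1.8.2 served with build mm9; which step each ran, with which settings and control, is not given in the sources used here. For 19 of the 27 samples the authors deposited 1 list with a score per peak, lowest value 50. Whole-cell extracts were not analysed here. Coordinates are 1-based mm9. Genes were not assigned to peaks, because the gene tables at hand were of another build; for the same reason the fibroblast label was not checked against marker genes. Overlap needed 1 bp, and domains were peaks merged within 3 kb. Log2 ratios of region counts used a pseudocount of 1. Intervals (95%) are Wilson for shares, Clopper-Pearson for ratios and order-statistic for medians, and cover counting error only. Named regions were drawn from the 10 highest scoring, widest or most changed per mark and direction. The members and lists were chosen with earlier results of these data known. Alternatives tried were an overlap of 50% of the shorter interval, a minimum score of 100, equal peak numbers, autosomes only, leaving out positions with peaks of every kind, and merging within 1 or 10 kb. The alternatives for regions with both marks, and H3K4me3 midpoints, were added after the data were seen. The code was tested on simulated lists and against bedtools 2.31.1, with equal results for 10 of 10 pairs of lists. Scripts ran under Python 3.11.15 with scipy 1.17.1, pandas 2.3.3, numpy 2.4.6 and, for figures, matplotlib 3.10.9.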

Additional observations from a re-analysis of the deposited data

Results flagged for a closer look

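In 5 measures the Utx-KO and the WT fibroblasts moved in opposite directions with dox. Each rests on 1 library per state, and the differences were not tested. The WT dox H3K27me3 list was short, with 938 peaks, and its part was looked at only for regions with both marks. The covered length of H3K27me3 changed by 0.61 (log2 of dox over untreated) in Utx-KO and by -2.84 in WT MEF. Median H3K27me3 peak width changed by 0.66 and -0.39. The number of H3K27me3 domains of at least 10 kb changed by 0.61 in Utx-KO, from 88 to 135, and by -6.82 in WT MEF, from 112 to 0, with 1 added to each count. The number of H3K4me3 peaks changed by -0.45 in Utx-KO and 0.13 in WT MEF. The number of H3K4me3 domains, peaks merged within 3 kb, was higher with dox in both genotypes. It went from 13649 to 15335 in Utx-KO and from 12867 to 17958 in WT MEF. Regions with both marks changed by 2.10 in Utx-KO and -0.59 in WT MEF, but with the 938 top-scoring H3K27me3 peaks of each list the WT value was 1.15 (0.83 to 1.49), and the directions were then the same.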

How the results depend on the processing

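Of 48 alternative values for 10 results, 22 stayed within the counting interval of the value reported, 24 moved beyond it and 2 changed sign. With equal peak numbers the H3K27me3 log2 ratio of dox-only over untreated-only regions changed sign from -0.35 to 0.23, and the H3K4me3 difference between Utx-KO and WT MEF from -1.36 to 2.36. The same setting gave an H3K4me3 ratio of 4.87, an H3K4me3 width ratio of 2.87, 33.3% of H3K27me3 and 98.8% of H3K4me3 untreated domains met, a difference of 25.15 points in H3K27me3 regions with H3K4me3, an H3K27me3 difference between genotypes of 0.23 and a log2 ratio of regions with both marks of 3.42. With a score of at least 100 these were -2.34 for the H3K27me3 ratio, 3.03 and 3.37 for the H3K27me3 and H3K4me3 width ratios, 21.9% and 94.8% of domains met, 16.55 points, 6.015 and -1.72 for the differences between genotypes, and 1.535 for both marks. An overlap of 50% gave 26.65% of H3K27me3 domains met and 17.9 points. Autosomes alone gave an H3K27me3 ratio of -0.23 and 32.6% of domains met, and merging within 1 kb gave 32.9%. H3K4me3 midpoints gave 8.53 points and 2.38 for both marks, and the 938 top-scoring H3K27me3 peaks 2.46. The causes were not tested. No paired analysis was possible because each state and mark had 1 library.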
